A study of Homo sapiens with 54 samples.

Results

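The replication-dependent histone genes were examined in poly(A)-selected RNA of colorectal cancer (CRC) cell lines. These genes carry HIST1 to HIST4 symbols in the gene table, after the chromosomal cluster they belong to. Of 89 such symbols, 15 were pseudogene names by their spelling and were left out. Of the remaining 74, 37 reached 20 estimated counts in at least 3 libraries and are the members described here, out of 59368 genes in the table. The other 37 stayed under that minimum, and 4 of them were at 0 in all libraries. The members comprised 2 genes for the linker histone H1, 8 for H2A, 13 for H2B, 6 for H3 and 8 for H4. By cluster, 24 carried HIST1, 10 HIST2, 2 HIST3 and 1 HIST4 symbols. The member just inside the minimum, HIST1H1E, had a third-highest count of 26, and the names just outside, HIST1H2BO and HIST1H1B, had 15.0 and 14. A minimum of 10 would have kept 44 names and a minimum of 50 would have kept 25. HIST2H2BC and HIST2H2BD passed by spelling, but the annotation lists both as pseudogenes.

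Histone proteins package DNA, with the core histones H2A, H2B, H3 and H4 forming the particle around which DNA winds and H1 binding the DNA between particles. Most histone mRNA is made in S phase, when new DNA must be packaged. It is the one class of human mRNA that normally ends in a conserved stem-loop instead of a poly(A) tail. The stem-loop is bound by SLBP, which is needed for 3′ end processing, translation and stability of the mRNA, and transcription of the genes depends on NPAT. When RNA is selected by its poly(A) tail, as here, the histone signal comes from transcripts that ended further downstream at a polyadenylation site, from spliced forms, or from untailed RNA carried through the selection. The values below are therefore levels of histone RNA in the poly(A) fraction and not the total histone mRNA of the cells. Fewer cells in S phase and less RNA per cell cannot be told apart in such bulk samples.

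The study grew DLD-1 cells, HCT-116 cells and HT-29 cells, each as 5-FU-sensitive parental cells and as 5-FU-resistant cells derived from them by long passage in rising doses of 5-fluorouracil (5-FU), a pyrimidine analogue that blocks thymidylate synthesis and enters RNA and DNA. Each was treated for 24 h with 10 µM uracil as the control, with 10 µM 5-FU, or with 10 µM 5-FU followed by a change of medium and X-ray irradiation at the half-lethal dose of that line. These 18 conditions held 3 libraries each, 54 in all. All are established CRC lines. The resistant cells were cultured with 5-FU before the experiment, so their uracil libraries come from cells with that history. The study's methods call the replicates biological, while the labels only number them, so the p-values below measure the spread between these libraries.

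Library totals ran from 38957142 to 86673615 estimated counts, apart from 1 library of 218518344, with a median of 51373543. The libraries labelled resistant HT-29 went against their label. Of 47 genes that marked HCT-116 among the sensitive lines, they held 45 at 1 TPM (a level adjusted for transcript length, with the same total in every library) or more, and of the 7 genes that marked HT-29 they held 0. The summed level of those 7 genes was 0.109 to 0.544 TPM in them, against 92.4 to 108 TPM in sensitive HT-29 under uracil. They are called the libraries labelled resistant HT-29 throughout, and no direction drawn from them is a direction of HT-29. Epithelial markers were present in every library, with a summed level of 2355 to 14962 TPM over 11 genes. The sums over other cell types were 0.563 to 31.3 TPM for fibroblasts, 0.524 to 22.9 TPM for blood and 0.162 to 5.43 TPM for endothelium. Of the 5 fibroblast genes, only COL1A2 was at or below 0.1 TPM in all libraries, and the others exceeded it in at least 1.

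The stem-loop that marks these genes as replication-dependent is shown for the members on which the results turn, since it is the feature that sets their usual 3′ end. It was searched on the coding strand within 150 bases after the stop codon of each coding member's reference transcript. The pattern had 16 bases. The first side of the stem was written GGNNCT, where N is any base. The loop that followed had 3 T and any base. After the loop came the other side of the stem, written AGNNCC. No other pattern was searched in this window, and the reverse strand was used as the comparison. It was found in 34 of the 35 searched, all but HIST1H3E. By comparison, 70 of 19924 protein-coding reference transcripts held it in the same window (0.351%), and 2 (0.01%) held its reverse complement. Capitals mark the loop between the paired stems. The sequences are from GRCh38, written 5′ to 3′ on the strand of the gene.
HIST1H1C (chr6:26055744-26055759, minus strand, 27 bases after the stop): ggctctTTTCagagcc
HIST1H2AC (chr6:26124669-26124684, plus strand, 43 bases after the stop): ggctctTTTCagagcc
HIST2H2AC (chr1:149887391-149887406, plus strand, 26 bases after the stop): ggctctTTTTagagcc
HIST1H2BD (chr6:26158587-26158602, plus strand, 36 bases after the stop): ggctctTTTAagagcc
HIST1H2BK (chr6:27146366-27146381, minus strand, 36 bases after the stop): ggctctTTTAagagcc
HIST2H2BE (chr1:149886188-149886203, minus strand, 56 bases after the stop): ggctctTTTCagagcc
HIST1H4I (chr6:27139654-27139669, plus strand, 33 bases after the stop): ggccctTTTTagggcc
HIST4H4 (chr12:14770724-14770739, minus strand, 33 bases after the stop): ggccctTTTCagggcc
HIST1H1C, HIST1H2AC and HIST2H2BE share all 16 bases, and HIST1H2BD shares its 16 with HIST1H2BK.

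A few members held most of the summed TPM. Over the 54 libraries, HIST1H2BK had the highest mean level at 50.2 TPM, followed by HIST1H1C, which encodes a somatic linker histone, at 37.5 TPM. HIST2H2AA4, an H2A gene, averaged 16.3 TPM, and HIST1H2BD, an H2B gene, 12.9 TPM. Between 7.54 and 3.10 TPM came, in falling order, HIST3H2A, HIST1H2AC, HIST1H4J, HIST1H4I, HIST2H2BC, HIST1H2BJ, HIST2H2BD and HIST2H4A. The other 25 members averaged less. By mean estimated counts, which are not adjusted for transcript length, the order was different. HIST2H2BC came first at 761, before HIST1H1C at 744 and HIST1H2BK at 502. Some values cannot be assigned to 1 gene. HIST2H3A and HIST2H3C, both encoding H3, had identical values in every library. HIST2H2AA3, a near-identical copy of HIST2H2AA4, had a third-highest count of 0.000132, and how reads common to both were assigned was not tested. HIST2H4A and HIST2H4B encode the same H4 protein from near-identical sequences and are likewise uncertain.

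**Figure D1:**
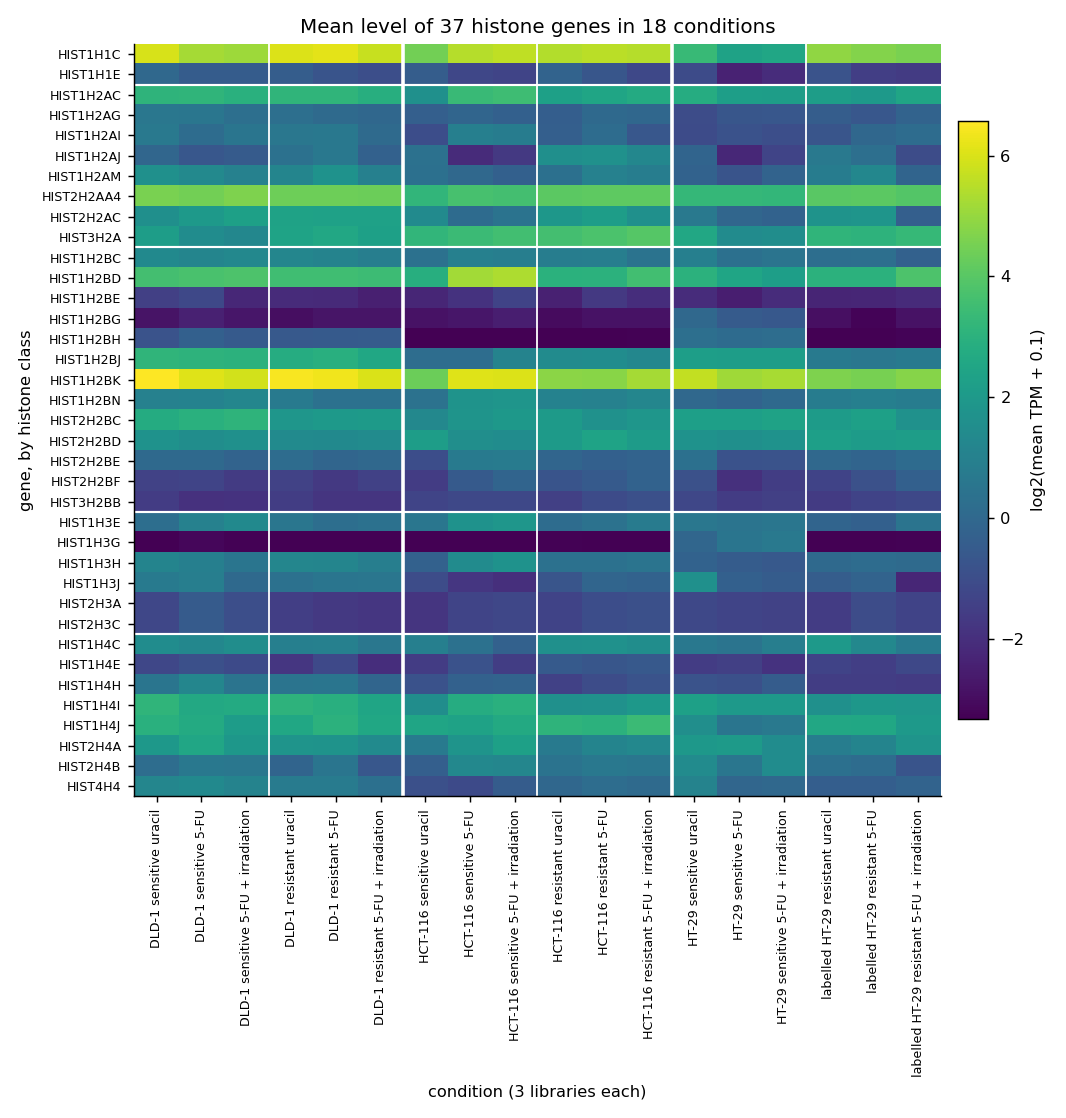
Mean level of each of the 37 members (rows, by histone class) in each of the 18 conditions (columns, by line, sensitivity and treatment, 3 libraries each), coloured by log2(mean TPM + 0.1). HIST1H2BK and HIST1H1C form the brightest rows, with means of 50.2 and 37.5 TPM over all libraries, and most H3 and H4 rows are dark.

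Transcript estimates were used to see which forms of the RNA carried the signal. The 37 members had 64 annotated transcripts of 372 to 4137 bases. One transcript was annotated for 24 members. Each of the other 13 had several, including at least 1 spliced form. In 10 members spliced forms held more than 50% of the estimated counts in these transcripts. In 33 members the counts of these transcripts summed to the gene's count in all libraries. For HIST2H2BC and HIST2H2BD they held only 3.34% and 1.71% of it, so most of the signal of these 2 genes was not examined by form. For HIST1H4H they held 86.4%. For HIST1H2BD, a 789-base form of 2 exons held 93.1% of counts over all libraries, and for HIST1H3E a 2679-base form of 2 exons held 99.8%. In contrast, the annotated transcripts of HIST1H2BK and HIST1H1C were single exons of 381 and 642 bases. HIST2H2BE was annotated as 1 exon of 2194 bases, with 1801 bases after the stop codon and therefore well past its stem-loop. So the members of highest level differed in annotated form, and 20 of the 37 had an annotated transcript of more than 1000 bases.

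The lines were first compared under uracil, to set the level from which each drug response starts. Sensitive DLD-1 had the highest histone level and sensitive HCT-116 the lowest. The summed level of the 37 members was 288, 264 and 271 TPM in the DLD-1 libraries, 105, 104 and 103 TPM in HCT-116, and 138, 142 and 137 TPM in HT-29. The 3 lines did not overlap. The H2B class made up the largest part, at a mean of 132 TPM in DLD-1, 77.6 TPM in HT-29 and 38.5 TPM in HCT-116. H1 was at 63.2 TPM in DLD-1, 22.4 TPM in HCT-116 and 10.3 TPM in HT-29.

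Individual members were called between lines where the adjusted p did not exceed 0.01 and the log2 fold change was 1 or more in size, by edgeR's quasi-likelihood test (Benjamini-Hochberg over all genes). In HCT-116 against DLD-1, 18 of 37 members were lower and 0 were higher, where 30.7% of all genes were called and 14.2% were lower. In HCT-116 against HT-29, 13 were lower and 0 higher (37.5% of all genes called, 16.7% lower). In DLD-1 against HT-29, 10 were higher and 3 lower (30.9% of all genes called, 17.4% higher and 13.4% lower). HIST1H2BJ, an H2B gene, differed between HCT-116 and DLD-1 by −3.48 and HIST1H2BK by −2.27 on the log2 scale. HIST1H2BK was at 19.8, 20.8 and 19.6 TPM in HCT-116, 48.6, 54.4 and 47.3 TPM in HT-29, and 105, 87.4 and 91.1 TPM in DLD-1, with no overlap between lines. HIST1H1C was at 9.52, 10.5 and 9.92 TPM in HT-29, 22.1, 22.5 and 20.8 TPM in HCT-116, and 65.6, 60.2 and 61.1 TPM in DLD-1. Its log2 difference between DLD-1 and HT-29 was 2.53. The order of lines therefore differed between genes, with HT-29 lowest for HIST1H1C and HCT-116 lowest for HIST1H2BK.

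A few members were at 0 in every uracil library of a sensitive line. HIST1H2BH, an H2B gene, was at 0 in the sensitive HCT-116 libraries under uracil and at 1.11, 1.11 and 1.18 TPM in HT-29. Against a floor of 3 counts per library it was at least 23.1-fold lower in HCT-116 than in HT-29, and at least 9.40-fold lower than in DLD-1. HIST1H3G, an H3 gene, was at 0.822, 0.88 and 0.87 TPM in HT-29 and at 0 in the other sensitive lines under uracil. It was at least 30.3-fold lower in DLD-1 and at least 20.8-fold lower in HCT-116 than in HT-29. HIST1H3G reached the count minimum for members in 9 libraries and was at 0 in 40. It became a member through the libraries where it was high, so these fold bounds partly restate how it was chosen.

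The main question for these genes was how their poly(A) RNA changed when sensitive cells met 5-FU. The response differed in direction between lines. In HCT-116 the summed level went from 104 ± 1.02 TPM (SD, n = 3) to 230 ± 2.6 TPM (SD, n = 3), a ratio of 2.20. The 5-FU libraries were at 230, 232 and 227 TPM, all above the uracil libraries. In HT-29 the sum went from 139 ± 2.87 to 100 ± 4.56 TPM (SD, n = 3 each), a ratio of 0.720. The 5-FU libraries were at 95.5, 99.9 and 105 TPM, all below the control libraries. In DLD-1 it went from 274 ± 12.2 to 220 ± 0.513 TPM (SD, n = 3 each), a ratio of 0.803. These sums are descriptions and were given no test. They lean on few genes. In HCT-116, HIST1H2BK contributed 48.0, HIST1H2BD 29.0 and HIST1H1C 22.7 TPM of the difference of 125 TPM. In DLD-1, HIST1H2BK and HIST1H1C contributed −26.9 and −25.3 TPM of a change of −54.0 TPM. As a share of estimated counts instead of TPM, the log2 ratio was 1.08 in HCT-116, −0.31 in HT-29 and −0.063 in DLD-1, so the change in DLD-1 was nearly lost on that scale. The count scale gives more weight to HIST2H2BC and HIST2H2BD, both annotated as pseudogenes, with mean counts of 761 and 369 over all libraries.

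**Figure D2:**
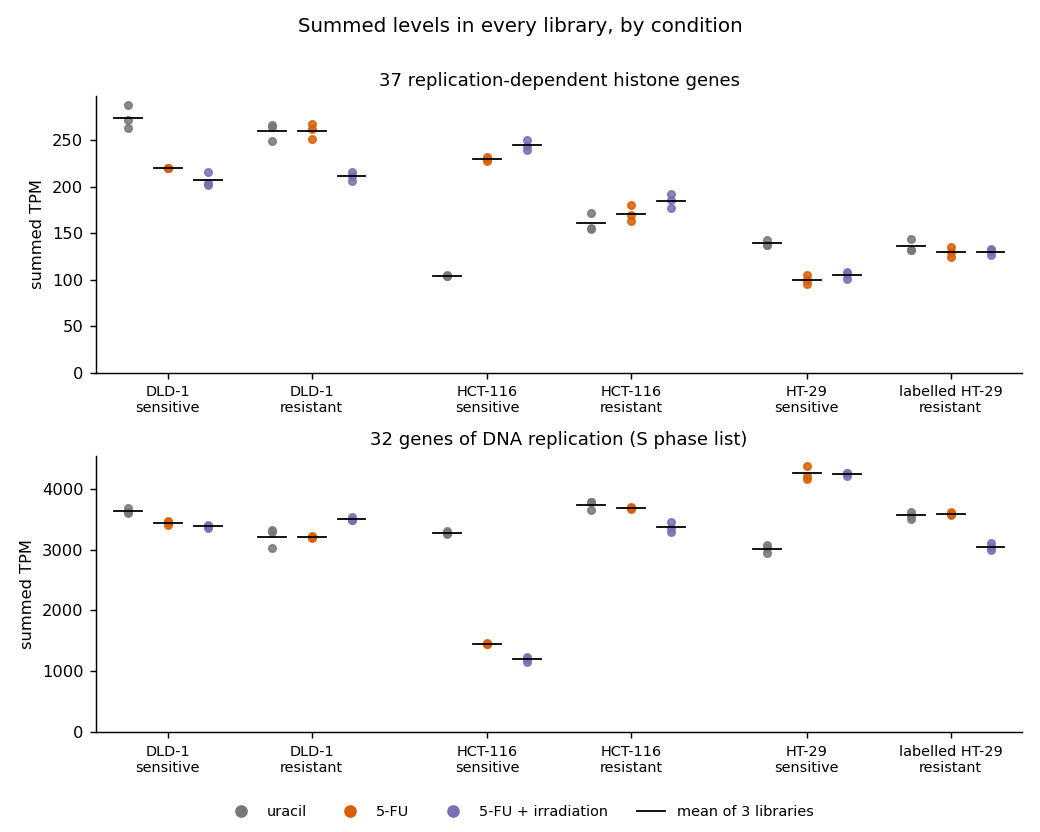
Summed TPM of the 37 histone members and, separately, of 32 S phase genes, 1 point per library in each of the 18 conditions. The 3 sensitive HCT-116 libraries under 5-FU sit between 227 and 232 TPM for the histone members, above the uracil libraries at 103 to 105 TPM, while their S phase sums lie lower.

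In HCT-116, the sum of every histone class lay higher under 5-FU. The mean H2B sum went from 38.5 to 120 TPM, H1 from 22.4 to 44.8 TPM, H2A from 27.0 to 38.4 TPM, H3 from 2.86 to 6.61 TPM and H4 from 13.6 to 20.5 TPM. Of 33 members that could be tested, 14 were called, 12 higher and 2 lower, where 8.14% of all genes were called, 4.79% higher and 3.36% lower. Of the 33, 26 had a log2 fold change above 0, and their median was 0.73 against 0.03 over all genes. The 4 members not tested had too few counts in this line. DESeq2 called 13.

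Among the H2B genes, which code for one partner of the H2A–H2B dimer, HIST1H2BD had the largest change of the well-measured members. It was at 6.9, 7.2 and 7.43 TPM under uracil and at 36.6, 35.9 and 36.2 TPM under 5-FU. The treated libraries lay far above the controls, with a log2 fold change of 2.33 (SE 0.09, adjusted p = 4.70e-15, edgeR). HIST1H2BK was at 19.8, 20.8 and 19.6 TPM under uracil and at 67.8, 68.1 and 68.4 TPM under 5-FU. Here too the groups lay far apart, with a log2 fold change of 1.74 (SE 0.08, adjusted p = 4.74e-14, edgeR). HIST2H2BE, the H2B gene of the HIST2 cluster with the long single exon, was far less abundant. It was at 0.344, 0.477 and 0.389 TPM under uracil and at 1.79, 1.37 and 1.54 TPM under 5-FU. The groups did not overlap, and the log2 fold change was 1.94 (SE 0.20, adjusted p = 4.32e-08, edgeR). HIST2H2BF rose by 1.69 and HIST1H2BN by 1.44 on the log2 scale.

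Among the H1 and H2A genes the directions were mixed. HIST1H1C was at 22.1, 22.5 and 20.8 TPM under uracil and at 44.2, 45 and 44.1 TPM under 5-FU. All treated libraries lay above all controls, with a log2 fold change of 1.02 (SE 0.08, adjusted p = 3.07e-10, edgeR). That value sits at the fold threshold, and without replicate 3 of each group it was 1.00, just under it, and was not called. HIST1H2AC was at 3.38, 2.55 and 3 TPM under uracil and at 10.7, 10.3 and 10.1 TPM under 5-FU, a log2 fold change of 1.78 (SE 0.11, adjusted p = 5.83e-12, edgeR). HIST2H2AC was at 3.76, 1.56 and 2.3 TPM under uracil and at 0.716, 1.31 and 0.941 TPM under 5-FU. All 3 treated libraries were below the controls, by −1.34 on the log2 scale (SE 0.36, adjusted p = 3.77e-03, edgeR). The call rested on few libraries, since without replicate 1 of each group the log2 fold change was −0.76 and was not called, and it was −1.34 and not called without replicate 3. The other called H2A genes were scarce. HIST1H2AI rose by 2.24 and HIST1H2AJ fell by 2.94 on the log2 scale, and both calls were lost when single replicates were left out, at 1.82 without replicate 2 and 1.98 without replicate 3 for HIST1H2AI, and at −3.09 without replicate 1 and −1.74 without replicate 3 for HIST1H2AJ. HIST1H2AJ was at 0.703, 0.771 and 2.12 TPM under uracil and at 0.142, 0.255 and 0 TPM under 5-FU.

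Of the H3 genes, HIST1H3H was at 0.929, 0.837 and 0.428 TPM under uracil and at 2.49, 2.86 and 2.43 TPM under 5-FU. The log2 fold change was 1.82 (SE 0.23, adjusted p = 7.75e-07, edgeR), and the groups did not overlap. HIST1H3E, the coding member without the stem-loop motif in its reference transcript, was at 1.2, 1.54 and 1.36 TPM under uracil and at 2.83, 3.43 and 3.33 TPM under 5-FU. It rose by 1.23 on the log2 scale. Of the H4 genes, which encode the same protein, HIST1H4I was at 2.18, 3.03 and 3.16 TPM under uracil and at 7.1, 6.86 and 6.79 TPM under 5-FU. It rose by 1.30 on the log2 scale (SE 0.14, adjusted p = 3.43e-08, edgeR), with no overlap. HIST2H4B rose by 1.74 (SE 0.54), a call that DESeq2 did not make and that was lost without replicate 1 (1.69) and without replicate 2 (1.49). Members that did not pass in this line included the abundant HIST3H2A, at 9.25, 8.88 and 8.96 TPM under uracil and at 11.7, 11 and 9.31 TPM under 5-FU.

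**Figure D3:**
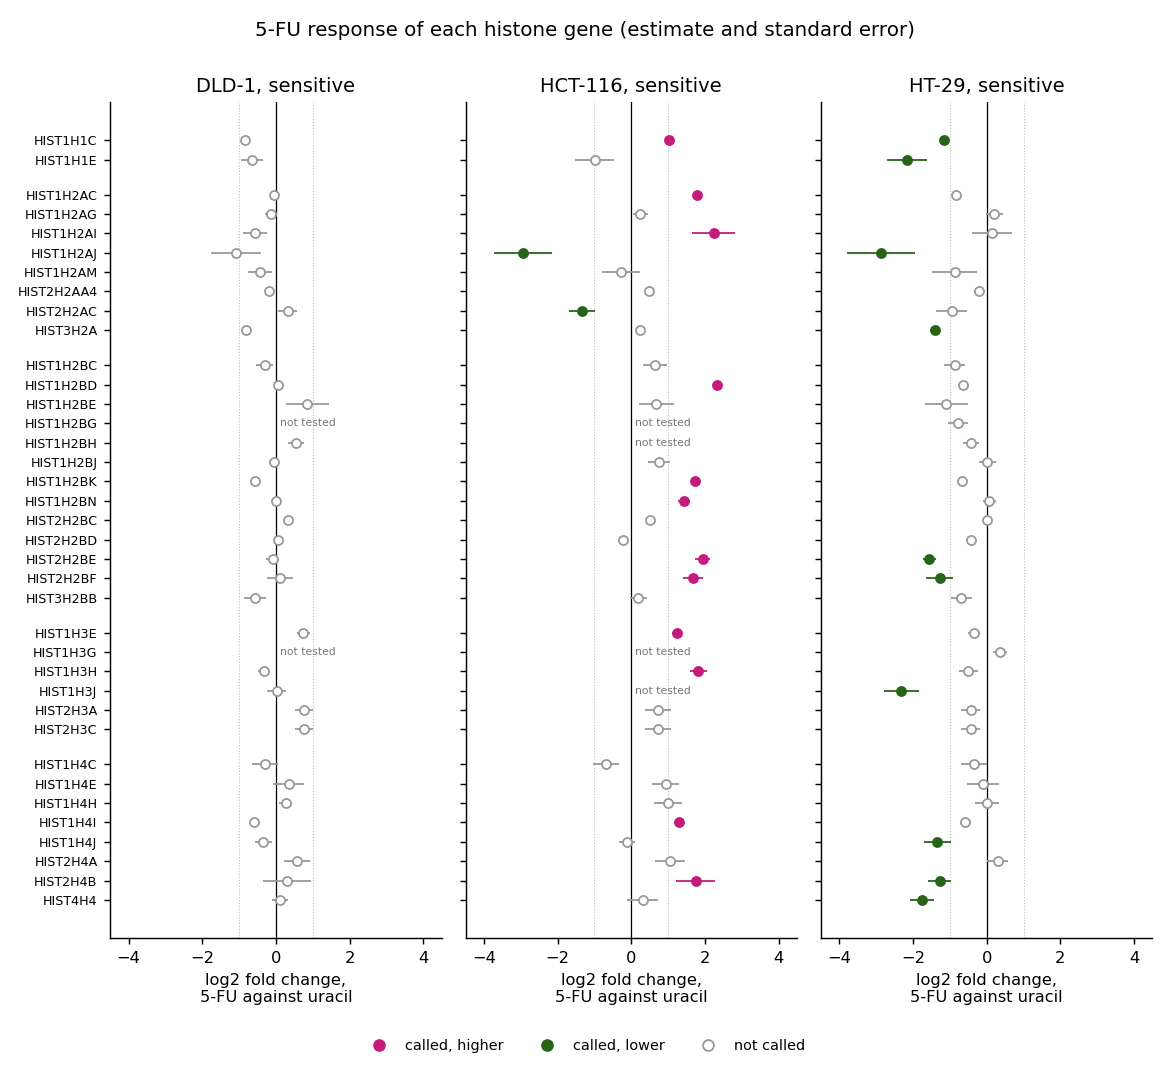
Log2 fold change of each member under 5-FU against uracil in each sensitive line, with bars of 1 SE from edgeR. Filled points passed both thresholds and members without enough counts are marked as not tested. In HCT-116, 12 filled points lie above 0 and 2 below, in HT-29 10 lie below, and in DLD-1 there are 0.

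In HT-29, 10 of 37 members were lower under 5-FU and 0 were higher, where 12.2% of all genes were called, 3.3% lower. The median log2 fold change of the members was −0.64, against 0.03 over all genes. DESeq2 called 9. Without replicate 1 of each group edgeR called 6 and without replicate 2 it called 5. The class sums of all 5 histone classes were lower, with H2B at 77.6 TPM under uracil and 57.7 TPM under 5-FU, and H1 at 10.3 and 5.25 TPM.

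HIST1H1C was at 9.52, 10.5 and 9.92 TPM under uracil and at 5.41, 5.11 and 4.94 TPM under 5-FU. The groups lay apart, with a log2 fold change of −1.16 (SE 0.11, adjusted p = 1.93e-09, edgeR). The other H1 gene, HIST1H1E, summed to 28 counts in the control libraries and 9 in the treated ones. The ratio of uracil to 5-FU was 4.26 after scaling for library size, with an exact 95% counting interval of 1.95 to 10.3 (adjusted p = 1.29e-03, edgeR). HIST3H2A, an H2A gene outside the large clusters, was at 6.07, 5.63 and 6.14 TPM under uracil and at 2.19, 2.88 and 2.77 TPM under 5-FU. It fell by 1.41 on the log2 scale (SE 0.13, adjusted p = 5.74e-10, edgeR). HIST2H2BE was at 1.23, 1.09 and 1.14 TPM under uracil and at 0.465, 0.444 and 0.467 TPM under 5-FU. It fell by 1.56 (SE 0.18, adjusted p = 2.46e-08, edgeR), so the gene that rose in HCT-116 fell here.

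The H3 and H4 genes of HT-29 moved the same way where they passed. HIST1H3J, an H3 gene, was at 3.29, 3.42 and 2.29 TPM under uracil and at 0.953, 0.491 and 0.735 TPM under 5-FU, a log2 fold change of −2.32 (SE 0.47, adjusted p = 1.35e-04, edgeR). HIST4H4 was at 2.4, 1.63 and 2.18 TPM under uracil and at 1.16, 1.16 and 0.279 TPM under 5-FU. HIST1H4J was at 2.49, 3.64 and 2.48 TPM under uracil and at 0.997, 1.25 and 1.72 TPM under 5-FU. In all 3 genes the treated libraries lay below all controls, as they did for 10.6% of all genes with a value. HIST4H4 fell by 1.76 and HIST1H4J by 1.34 on the log2 scale. The call of HIST1H4J was lost without replicate 1 (−1.28) and without replicate 2 (−1.09). HIST2H4B fell by 1.28, and was at −1.01 and not called without replicate 2. HIST2H2BF fell by 1.28, with the call lost on leaving out any replicate (−1.39 to −1.21). HIST1H2AJ was called at −2.87, a call lost on leaving out any replicate (−3.67 to −2.54), with a replicate block (−2.85), with DESeq2 (−3.02) and with library size alone (−2.71), and its groups overlapped in TPM, at 1.03, 0.202 and 1.23 under uracil and 0.216, 0 and 0.122 under 5-FU. The 2 H2B genes that rose most in HCT-116 by level did not pass in HT-29. HIST1H2BK was at 48.6, 54.4 and 47.3 TPM under uracil and at 35.5, 37.3 and 34.4 TPM under 5-FU, and HIST1H2BD was at 7.38, 7.94 and 9.02 TPM under uracil and at 4.78, 5.6 and 6.08 TPM under 5-FU. For both, the treated libraries lay below the controls by less than the fold threshold.

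Markers of other cell types moved with 5-FU in sensitive HT-29 and their part in the histone values was not tested. Of the fibroblast list, 2 of 3 genes tested were higher, COL1A1 and LUM, and its sum was 0.919 to 1.68 TPM under uracil and 3.47 to 4.63 TPM under 5-FU. The blood list went from 3.34 to 6.42 TPM under uracil to 16.7 to 21.1 TPM under 5-FU, with CD68 higher, and the endothelial list from 0.162 to 0.62 TPM to 3.81 to 4.09 TPM, with PECAM1 and VWF both higher. In sensitive HCT-116 none of these genes was called, and the fibroblast sum was 19.5 to 24.3 TPM under uracil and 26.5 to 31.3 TPM under 5-FU.

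In sensitive DLD-1, 0 of 35 members tested were called by edgeR's quasi-likelihood test under 5-FU, and 0 by DESeq2, where 4.02% of all genes were called. At an unadjusted p under 0.05 there were 10 members, against 11060 of 21814 genes, and 6 members reached an adjusted p of 0.01 without the fold threshold, 2 of them higher and 4 lower, where 34.7% of all genes did. The median log2 fold change of the members was −0.05. HIST1H1C was at 65.6, 60.2 and 61.1 TPM under uracil and at 36, 37.3 and 37.8 TPM under 5-FU. The groups lay far apart, and the log2 fold change of −0.84 (SE 0.06, adjusted p = 6.09e-10, edgeR) missed the fold threshold only. HIST1H2BK was at 105, 87.4 and 91.1 TPM under uracil and at 63.7, 67.2 and 71.9 TPM under 5-FU. HIST1H2BD was at 12.6, 11.7 and 11.8 TPM under uracil and at 12.7, 13.9 and 13 TPM under 5-FU, where the treated libraries lay slightly above the controls. HIST1H3E was at 1.18, 1.07 and 0.991 TPM under uracil and at 2.25, 1.84 and 1.71 TPM under 5-FU.

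**Figure D4:**
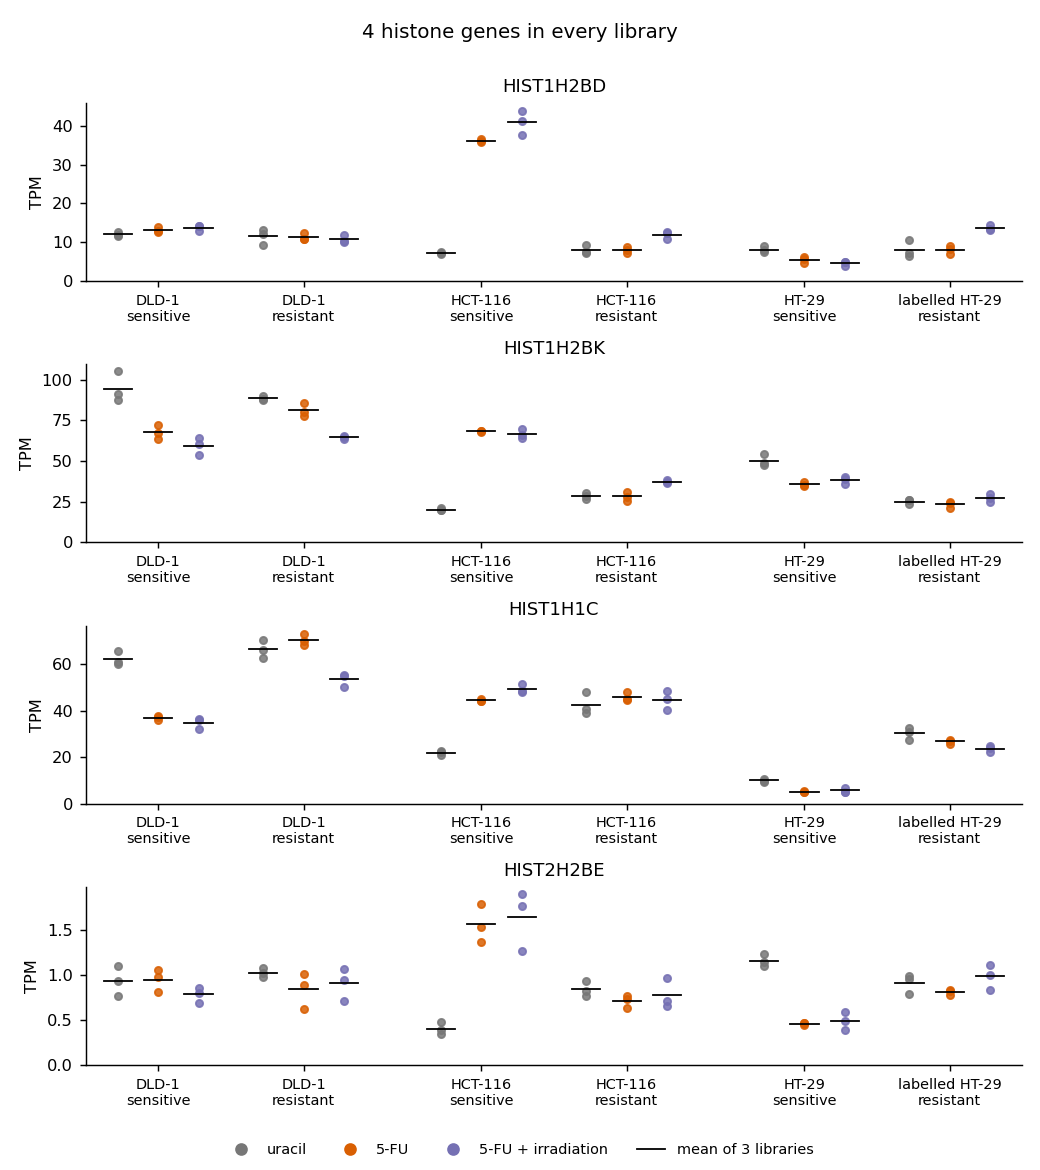
TPM of HIST1H2BD, HIST1H2BK, HIST1H1C and HIST2H2BE in each of the 54 libraries, 1 panel per gene, by line, sensitivity and treatment. HIST1H2BD stands out in sensitive HCT-116, where the 5-FU libraries reach 35.9 to 36.6 TPM against 6.9 to 7.43 TPM under uracil.

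The difference of the 5-FU responses between sensitive lines was tested directly, with an adjusted p up to 0.01 as the threshold. HCT-116 minus HT-29 gave 16 members, all higher in HCT-116, where 34.9% of all genes differed and 15% were higher. HCT-116 minus DLD-1 gave 13, of which 12 were higher and HIST2H2AC was lower by 1.65 (25.3% of all genes differed, 12% higher and 13.3% lower). That lower call was lost without replicate 1 (−0.83) and without replicate 3 (−1.84). DLD-1 minus HT-29 gave 7, all higher (27.2% of all genes differed, 11.4% higher), and 4 without replicate 1 or without replicate 3. As a share of those tested, the members that differed were 43.2%, 35.1% and 18.9% in these 3 tests, the last of which lies below the share over all genes. The tests share the libraries of each line and are not independent. HIST2H2BE differed most between HCT-116 and HT-29, by 3.44 on the log2 scale (SE 0.26, adjusted p = 5.83e-16, edgeR), with responses of 1.94 and −1.56. HIST1H2BD differed by 2.91, HIST1H2AC by 2.54 and HIST1H2BK by 2.34. For HIST1H1C the difference was 2.13 (SE 0.13, adjusted p = 1.39e-19, edgeR), with responses of 1.02 and −1.16. Called members in both lines numbered 5. HIST1H1C, HIST2H2BE, HIST2H2BF and HIST2H4B moved in opposite directions, and HIST1H2AJ was lower in both. Between HCT-116 and DLD-1 the largest differences among the abundant members were 2.33 for HIST1H2BK, 2.28 for HIST1H2BD, 1.91 for HIST1H4I and 1.87 for HIST1H1C.

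The transcript estimates showed in which form HIST1H2BD changed. In sensitive HCT-116 the spliced 789-base form of HIST1H2BD had a mean of 6.93 TPM under uracil (range 6.47 to 7.20, n = 3) and 35.1 TPM under 5-FU (range 33.7 to 36.2, n = 3). Its 496-base single-exon form went from 0.25 to 1.10 TPM. Nearly all of the added HIST1H2BD signal was thus assigned to the spliced form. For HIST1H2AC, an H2A gene, the 1654-base form had a mean of 2.85 TPM under uracil and 6.79 TPM under 5-FU (range 4.71 to 8.22). A 1668-base form of 2 exons went from 0 to 2.10 TPM (range 0 to 4.00), and a 1462-base form from 0.12 to 1.44 TPM, so the split between these forms varied from library to library. These are estimates shared out between overlapping transcripts and were not tested. Split by annotated length, 8 of 17 tested members with a transcript over 1000 bases were higher in HCT-116, with a median log2 fold change of 1.05. Of 16 shorter members, 4 were higher and 2 lower, with a median of 0.36. In HT-29, 4 of 20 long members were lower (median −0.46) and 6 of 17 shorter ones (median −0.86). HIST1H2BK and HIST1H1C, each annotated with 1 transcript, a short single exon, were among those that rose in HCT-116. All their counts are assigned to that transcript, so the estimates cannot show which form of their RNA rose.

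**Figure D5:**
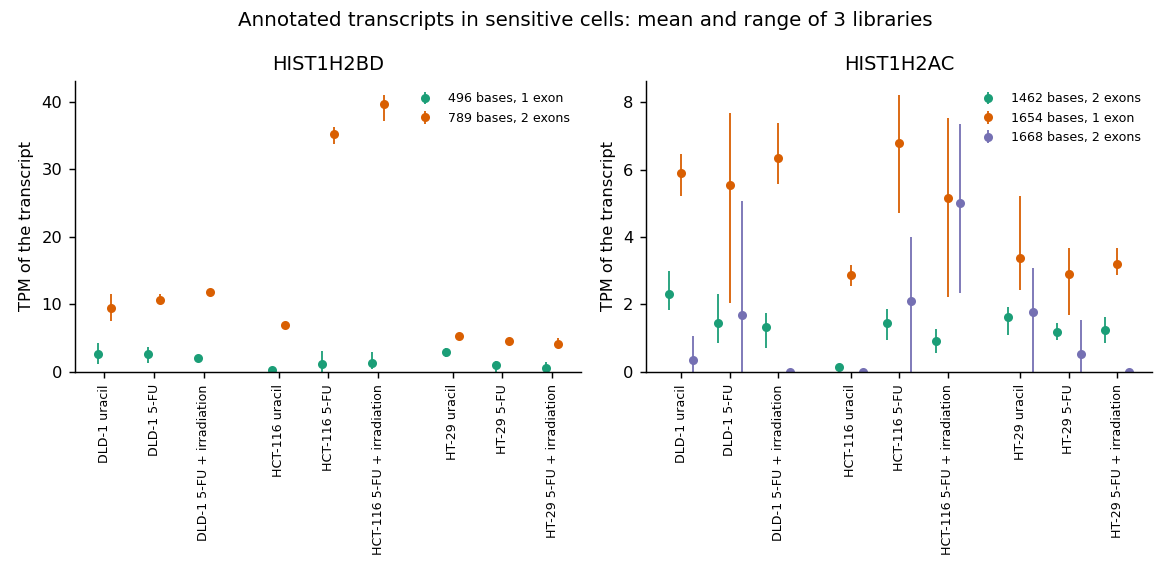
Estimated TPM of each annotated transcript of HIST1H2BD and HIST1H2AC in sensitive cells, as the mean with the range over the 3 libraries of each condition. In HCT-116 the 789-base form of HIST1H2BD goes from 6.93 to 35.1 TPM, while its 496-base form goes from 0.25 to 1.10 TPM.

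The promoters of 3 H2B genes are printed because their responses differed: HIST1H2BD and HIST1H2BK rose in HCT-116 and did not pass in the other lines, and HIST2H2BE rose in HCT-116 and fell in HT-29. Each is the 250 bases before the annotated start, from RefSeq on GRCh38.p14, 5′ to 3′ on the strand of the gene. Capitals mark CCAAT (the motif of NF-Y), TATAAA (bound by the general factor TBP) and ATTTGCAT (the octamer bound by OCT1), on either strand.
HIST2H2BE (chr1:149886683-149886932, minus strand): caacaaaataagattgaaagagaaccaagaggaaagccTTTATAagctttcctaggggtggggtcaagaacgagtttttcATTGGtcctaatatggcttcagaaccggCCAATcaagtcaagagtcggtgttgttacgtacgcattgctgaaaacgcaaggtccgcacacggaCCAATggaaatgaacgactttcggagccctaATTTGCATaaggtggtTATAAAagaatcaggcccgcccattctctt
HIST1H2BD (chr6:26157871-26158120, plus strand): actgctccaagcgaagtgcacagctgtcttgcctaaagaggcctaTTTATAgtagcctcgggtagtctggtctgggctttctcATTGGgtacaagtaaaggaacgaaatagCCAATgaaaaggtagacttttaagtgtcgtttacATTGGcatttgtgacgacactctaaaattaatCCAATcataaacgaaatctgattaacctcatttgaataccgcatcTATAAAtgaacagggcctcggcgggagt
HIST1H2BK (chr6:27146859-27147108, minus strand): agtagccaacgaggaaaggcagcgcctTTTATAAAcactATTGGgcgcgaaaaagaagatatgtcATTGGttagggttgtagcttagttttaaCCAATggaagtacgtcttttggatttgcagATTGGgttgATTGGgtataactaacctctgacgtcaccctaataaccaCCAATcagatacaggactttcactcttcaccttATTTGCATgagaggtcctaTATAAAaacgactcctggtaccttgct
In all 3, a TATAAA on the coding strand began 27 to 30 bases before the start. HIST2H2BE and HIST1H2BK both had ATTTGCAT beginning at base −46, and HIST1H2BD had no exact match in this window. CCAAT on the coding strand began at −142 and −77 in HIST2H2BE, at −139 and −73 in HIST1H2BD and at −157 and −79 in HIST1H2BK.

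The same motifs were counted in RefSeq promoters of 300 bases, from 250 before to 50 after the start, on both strands, for the 33 members with an entry. CCAAT was in 27 of 33, against 9747 of all 27305 promoters (35.7%). The exceptions were H4 genes, of which 1 of 7 held it. TATAAA was in 21 of 33, against 3264 (12%). ATTTGCAT was in 13 of 33, against 492 (1.8%), and these were 8 of 11 H2B and 5 of 8 H2A genes and 0 of the H1, H3 and H4 genes. These are matches of letters and not measured binding sites.

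Some members lie head to head and share the short stretch between their starts. There were 5 such pairs with 229 to 287 bases between the 5′ ends. HIST2H2BE and HIST2H2AC are separated by 235 bases, so that the HIST2H2BE promoter printed above spans the whole stretch between them and reaches into HIST2H2AC. In sensitive HCT-116 under 5-FU HIST2H2BE rose by 1.94 and HIST2H2AC fell by 1.34 on the log2 scale. In HT-29 HIST2H2BE fell by 1.56, while HIST2H2AC was at −0.95 and was not called. HIST1H2BC and HIST1H2AC, 245 bases apart, were at 0.64 and 1.78 in HCT-116, where only HIST1H2AC was called, and at −0.86 and −0.82 in HT-29, where neither was. HIST3H2A and HIST3H2BB, 229 bases apart, were at −1.41 and −0.69 in HT-29, where HIST3H2A was called.

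Resistant cells were then compared with their sensitive parents under uracil, to show what the histone level was without fresh drug. In DLD-1, 0 of 35 members were called by edgeR's quasi-likelihood test and 0 by DESeq2, where 5.7% of all genes were called, and 3 members and 9225 of 21814 genes had an unadjusted p under 0.05. The summed level was 266, 250 and 264 TPM in resistant DLD-1, near the sensitive libraries at 264 to 288 TPM. In HCT-116, 4 of 33 were higher and 0 lower, where 11% of all genes were called and 4.17% were higher. The median log2 difference was 0.59. HIST1H2BJ was at 1.1, 0.885 and 1.18 TPM in sensitive and at 1.71, 2.69 and 3.51 TPM in resistant cells, a log2 difference of 1.61 (adjusted p = 7.45e-05, edgeR). The resistant libraries all lay above the sensitive ones but spread widely. HIST1H4E was higher by 1.30, HIST4H4 by 1.28 and HIST2H2BE by 1.03. Without replicate 3 of each group 2 members were called in place of 4. HIST2H2BE was at 0.86 and not called without replicate 1, HIST4H4 at 0.89 without replicate 1 and 1.18 without replicate 3, and HIST1H4E at 0.70 without replicate 2 and 1.42 without replicate 3. HIST2H2BE was at 0.935, 0.764 and 0.825 TPM in resistant cells against 0.344 to 0.477 TPM in sensitive ones. The summed level of 155, 155 and 172 TPM lay above the sensitive control and below the sensitive cells under 5-FU.

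The libraries labelled resistant HT-29 differed from sensitive HT-29 in 13 of 37 members, 2 higher and 11 lower, where 39.4% of all genes were called, 21.4% higher and 18% lower. Scaled by library size alone the split was 4 higher and 7 lower. Since these libraries hold HCT-116 markers, this is a comparison of 2 backgrounds. HIST1H2BH and HIST1H3G were at 0 in them and at least 20.4-fold and 18.3-fold lower than in sensitive HT-29. HIST1H2BG, an H2B gene, summed to 4 counts against 140, a ratio of 29.7 with an exact 95% counting interval of 11.3 to 111. HIST1H2BG reached 20 counts in 8 of the 54 libraries, sensitive HT-29 under uracil among them. Like HIST1H3G it became a member through the libraries where it was high. HIST1H2BH was also at 0 in sensitive HCT-116. Set against sensitive HCT-116 instead, the same libraries differed in 2 members, both higher, where 7.06% of all genes were called and 2.35% were higher. HIST1H4C, an H4 gene, was at 4.15, 3.24 and 4.69 TPM in them against 1.49, 1.91 and 2.15 TPM (log2 difference 1.01, adjusted p = 7.77e-03, edgeR, a call not made without any 1 of the replicates), and HIST2H2BE was higher by 1.06 (adjusted p = 3.71e-05, edgeR).

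Resistant cells showed no called histone response to 5-FU. In any of the resistant groups, the libraries labelled HT-29 included, 0 members were called by edgeR's quasi-likelihood test and 0 by DESeq2. The background was equally low, at 0.0138% of all genes for DLD-1, 0% for HCT-116 and 0.00421% for the label HT-29. At an unadjusted p under 0.05 there were 1, 3 and 5 members in the same order, against 4041 of 21814, 1878 of 22975 and 1280 of 23756 genes. The ratio of the summed level under 5-FU to that under uracil was 1.00 for DLD-1, 1.06 for HCT-116 and 0.957 where the label was HT-29. HIST1H2BD in resistant HCT-116 was at 7.1, 7.44 and 9.33 TPM under uracil and at 8.06, 7.12 and 8.89 TPM under 5-FU, with overlapping groups. HIST1H2BK was at 26.4, 28.4 and 30 TPM and at 31, 25.6 and 28.1 TPM, again overlapping. HIST1H1C in resistant DLD-1 was at 70.4, 62.6 and 66 TPM under uracil and at 70, 68.3 and 73.1 TPM under 5-FU.

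Whether the 5-FU response itself differed by resistance was tested as an interaction (resistant minus sensitive), with an adjusted p up to 0.01 as the threshold. In HCT-116, 12 of 33 members differed, 11 of them lower in resistant cells, where 29.7% of all genes differed, 11.4% lower and 18.3% higher. HIST1H2BD differed by −2.34 (adjusted p = 1.51e-11, edgeR), HIST2H2BE by −2.23, HIST1H3H by −1.85, HIST1H2BK by −1.77 and HIST1H2AC by −1.61 on the log2 scale. HIST2H2AC differed by 1.60, a call that was lost with DESeq2 (1.61), a replicate block (1.58), library size alone (1.53) or the compared groups alone (1.60), and on leaving out any replicate (1.18 to 1.91). In DLD-1, 4 of 35 differed (22.8% of all genes, 13.7% higher and 9.12% lower), 3 higher and 1 lower, or 2 and 2 with scaling by library size alone. They were HIST1H1C at 0.93 (adjusted p = 6.46e-08, edgeR), HIST3H2A at 1.00, HIST1H2BK at 0.44 and HIST1H3E at −1.03, and 2 of the 4 calls held without replicate 1 or without replicate 3. In HT-29, with the libraries labelled resistant, 7 of 37 differed, all higher (35.4% of all genes, 19.3% higher), led by HIST4H4 at 2.01, HIST2H2BE at 1.36 and HIST3H2A at 1.26. Without replicate 2 of each group 4 were called and without replicate 3 there were 3, HIST4H4 not among them at 1.49. As a share of those tested, the members that differed were 36.4% in HCT-116, 11.4% in DLD-1 and 18.9% in HT-29, so only in HCT-116 was the share above that over all genes.

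Irradiation added to 5-FU moved few members. In the sensitive lines 0 were called by edgeR's quasi-likelihood test and 0 by DESeq2, where the share of all genes called was 0% for DLD-1, 0% for HCT-116 and 0.00842% for HT-29. At an unadjusted p under 0.05 there were 11 members and 2447 of 21814 genes in DLD-1, 1 member and 1943 of 22975 genes in HCT-116, and 2 members and 786 of 23756 genes in HT-29. HIST1H2BD in sensitive HCT-116 was at 43.9, 37.7 and 41.3 TPM with irradiation, against 35.9 to 36.6 TPM without, and HIST1H2BK was at 69.7, 65.9 and 64.3 TPM against 67.8 to 68.4 TPM. HIST1H2BK in sensitive DLD-1 was at 60.2, 53.7 and 64.4 TPM against 63.7 to 71.9 TPM. The first pair did not overlap, the others did.

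In resistant cells, irradiation on top of 5-FU was compared after the data had been seen. In resistant DLD-1 and HCT-116, 0 members passed both thresholds by edgeR's quasi-likelihood test and 0 by DESeq2 (0.142% and 0.0261% of all genes called). At an unadjusted p under 0.05 there were 9 members and 4714 of 21814 genes in DLD-1, and 6 members and 4305 of 22975 genes in HCT-116. Some differences were small and tight. HIST1H1C in resistant DLD-1 was at 70, 68.3 and 73.1 TPM under 5-FU and at 50.2, 55.4 and 54.7 TPM with irradiation, a log2 change of −0.41 (adjusted p = 2.98e-04, edgeR). HIST1H2BK in the same cells was at 80, 77.5 and 85.6 TPM and at 63.6, 65.2 and 64.8 TPM, a log2 change of −0.35 (adjusted p = 6.33e-03, edgeR). Both genes lay lower with irradiation in all libraries. In resistant HCT-116 the values lay the other way, with HIST1H2BD at 8.06, 7.12 and 8.89 TPM under 5-FU and at 12.3, 12.5 and 10.7 TPM with irradiation (log2 0.62, adjusted p = 7.84e-04, edgeR). HIST1H2BK there was at 31, 25.6 and 28.1 TPM and at 38.1, 37.1 and 36.7 TPM (log2 0.41, adjusted p = 3.46e-03, edgeR). In the libraries labelled resistant HT-29, 1 member was called, a lower one (0.434% of all genes called, 0.0842% lower). HIST2H2AC was at 4.24, 2.7 and 3.41 TPM under 5-FU and at 0.767, 0.561 and 0.757 TPM with irradiation, a log2 change of −2.34 (SE 0.42, adjusted p = 1.88e-04, edgeR). DESeq2 did not call it, and neither did edgeR without replicate 1 of each group. HIST1H2BD in these libraries was at 9.08, 6.87 and 8.25 TPM and at 13.2, 13.4 and 14.4 TPM, a log2 change of 0.78.

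The genes that make, process and use histone mRNA were read from the same fits. SLBP, the stem-loop binding protein, was at 123, 123 and 122 TPM under uracil and at 82.2, 81.3 and 76.9 TPM under 5-FU in sensitive HCT-116, a log2 change of −0.64 (SE 0.05, adjusted p = 4.53e-10, edgeR). In sensitive HT-29 it was at 125, 129 and 114 TPM and at 182, 173 and 171 TPM, a log2 change of 0.25 (SE 0.05, adjusted p = 1.18e-04, edgeR). The groups lay apart in both lines, in opposite directions to the histone sums, and neither change reached the fold threshold. NPAT, the transcriptional coactivator of these genes, was at 11.7, 12.4 and 13 TPM and at 7.65, 8.56 and 8.09 TPM in HCT-116, and at 16.5, 15.8 and 17.5 TPM and at 22.8, 23.4 and 23.8 TPM in HT-29. Its log2 changes were −0.49 (adjusted p = 3.06e-06, edgeR) and 0.31 (adjusted p = 5.56e-07, edgeR). The response differed between HCT-116 and HT-29 by −0.95 for SLBP and by −0.86 for NPAT. In sensitive DLD-1 SLBP was at 134, 129 and 128 TPM under uracil and at 126, 123 and 125 TPM under 5-FU.

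The S phase list, of replication fork and nucleotide synthesis genes, moved against the histone members in HCT-116. Of its 32 genes, 26 were lower under 5-FU in sensitive HCT-116, with a median log2 fold change of −1.25, where 3.36% of all genes were lower. MCM7, a subunit of the replicative helicase, fell by 1.69, MCM5, another subunit, by 1.66, GINS2 by 1.61 and RRM1, of ribonucleotide reductase, by 1.61. The summed level of the list was 3272, 3261 and 3301 TPM under uracil and 1462, 1447 and 1445 TPM under 5-FU. In sensitive HT-29 it was 3020, 3075 and 2938 TPM and then 4378, 4163 and 4214 TPM. The sum of the list thus lay higher under 5-FU in that line, where the histone sum lay lower. The only gene of the list named as called there was CLSPN, higher by 1.08 on the log2 scale. In DLD-1 the means of the summed level were 3635 and 3439 TPM. These sums were given no test and lack the TMM scaling of the fits. Between HCT-116 and HT-29, 32 of 32 genes of the list had a lower response in HCT-116. Over all genes 34.9% differed in either direction. Genes with a higher response were 15% of all genes, and the rest of the 34.9% had a lower one.

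Of the replication-independent histone genes, whose mRNA is mostly polyadenylated (H2AFX also makes a stem-loop form), 5 of 12 were lower in sensitive HCT-116 under 5-FU and 0 higher. Over all genes 3.36% were lower and 4.79% higher there. H1FX fell by 1.73, CENPA, the centromeric H3, by 1.70, H2AFZ by 1.51 and H2AFX by 1.13 on the log2 scale. In HT-29 H1FX fell by 2.29, H1F0 by 1.50 and H2AFJ by 1.02. Of the histone chaperones, 6 of 20 were lower in HCT-116 (3.36% of all genes). They were led by ASF1B, which hands H3 and H4 to the replication fork, at −2.29, and HJURP at −1.77. CHAF1B and NASP fell by 1.40 and 1.32. Of 21 genes for histone mRNA transcription and processing, 0 were called in HCT-116 at both thresholds (8.14% of all genes). In HT-29 CCNE2, a cyclin E, rose by 1.50. In sensitive DLD-1, 0 genes of these lists were called, where 4.02% of all genes were.

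RNAs that carry no poly(A) tail were followed as a measure of untailed RNA passing the selection. Their summed level in sensitive HCT-116 was 990, 736 and 609 TPM under uracil and 757, 828 and 722 TPM under 5-FU, with overlapping groups and 0 of 8 tested genes called by edgeR. In DLD-1 it was 562 to 730 TPM under uracil and 814 to 975 TPM under 5-FU, and in HT-29 511 to 647 TPM and 868 to 976 TPM. In both of those lines the sum lay higher under 5-FU while the histone sum lay lower. SNORD3A, 1 of these RNAs, was called in HT-29, higher by 1.19 on the log2 scale. A change in the level of these RNAs in the cells cannot be told apart from a change in carry-over. The part of carry-over in the histone values was not tested.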

How the data were processed

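RNA of the 54 libraries was poly(A)-selected and sequenced in pairs of reads on a directional library. The authors trimmed reads with Trimmomatic 0.36 and estimated transcript abundance with kallisto 0.44.0 on Ensembl 98 (GRCh38.p13), per the study's methods and processing notes. They deposited estimated counts per gene and per transcript, and TPM made from them by kallisto, which shares reads between similar sequences. Here estimated counts were rounded for tests, and levels were taken from TPM. Columns left unassigned to a sample numbered 0.

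The members and gene lists were chosen with earlier results of these data known. The 18 libraries of each line were fitted together in R 4.3.3 with edgeR 4.0.16 (TMM scaling, filterByExpr, quasi-likelihood test, Benjamini-Hochberg adjustment over all genes tested), and the thresholds were those of the study. Standard errors were the absolute log2 fold change over the square root of F. Comparisons between lines, and of irradiation in resistant cells, were added after the data were seen. On simulated counts the fits recovered 200 of 200 changed genes in DLD-1 (21814 genes), 198 in HCT-116 (22975 genes) and 200 in HT-29 (23756 genes), with 0, 0 and 1 false calls. Those genes were given a log2 fold change of 2, and recovery of smaller ones was not tested. Alternatives were DESeq2 1.42.0, other scaling and filters, a replicate block, the compared groups alone, thinning of the deepest library to 23.0% and leaving out replicates. Every pair of replicates differed by more than counting noise (lowest chi-square per degree of freedom 2.31 over 54 pairs). Counting intervals and floors cover counting error only. Named genes were the 12 members of highest mean TPM, in each comparison up to 5 members each way by fold change among those called with at least 100 counts in a group and no overlap in TPM, SLBP, NPAT, and up to 4 called genes per pathway list. For members named by fold change, the lack of overlap was thus part of the choice. Other members named, among them the scarce ones, were chosen after their values were seen. Stem-loops were read from the GENCODE 44 annotation on GRCh38, promoters from RefSeq.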

Additional observations from a re-analysis of the deposited data

Results flagged for a closer look

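These values were picked out because a 5-FU response differed between groups by a test of the difference itself (edgeR, adjusted p up to 0.01). Between resistant and sensitive cells, 12 members differed in HCT-116, 4 members differed in DLD-1, and 7 differed where the resistant side was the set of libraries labelled resistant HT-29. Over all genes 29.7% differed in HCT-116, 22.8% in DLD-1 and 35.4% with the label HT-29, where the members' shares were 36.4%, 11.4% and 18.9%. Between sensitive lines, 13 members differed for HCT-116 minus DLD-1, 16 for HCT-116 minus HT-29 and 7 for DLD-1 minus HT-29. Their shares were 35.1%, 43.2% and 18.9%, and over all genes 25.3%, 34.9% and 27.2% differed, so 3 of these 6 counts lie below the share over all genes.

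Of the members called in both HCT-116 and HT-29, the following moved in opposite directions. HIST1H1C differed by 2.13 on the log2 scale (SE 0.13, adjusted p = 1.39e-19, edgeR), HIST2H2BE by 3.44 (SE 0.26, adjusted p = 5.83e-16, edgeR), HIST2H2BF by 2.91 (SE 0.47, adjusted p = 7.05e-07, edgeR) and HIST2H4B by 2.96 (SE 0.84, adjusted p = 3.03e-03, edgeR). For each of these genes, the 5-FU and uracil libraries did not overlap in either line. Of all genes with a value, 36.1% did not overlap in sensitive HCT-116 and 39.8% in sensitive HT-29. HIST2H2BF was at 0.302, 0.211 and 0.201 TPM under uracil and at 0.584, 0.624 and 0.588 TPM under 5-FU in HCT-116, and at 0.485, 0.278 and 0.582 TPM and 0.151, 0.113 and 0.222 TPM in HT-29. HIST2H4B was at 0.597, 0.405 and 1.09 TPM and 1.63, 2.44 and 2.95 TPM in HCT-116, and at 2.51, 2.96 and 2.49 TPM and 1.53, 0.997 and 1.64 TPM in HT-29. HIST2H4B shares near-identical sequence with HIST2H4A, so its share of the reads is uncertain, and its difference was not called by DESeq2 (2.98) or without replicate 2 (2.43). Groups of 3 libraries were not examined for single outlying values.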

How the results depend on the processing

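Over the alternatives run, 147 calls of a member in a comparison gave 1177 values, of which 1020 kept the call, 157 lost it and 0 turned direction. Leaving out a replicate accounted for 107 of the losses. DESeq2 lost 13 of 147, scaling by library size alone 15, testing without a filter 9, the compared groups alone 11 of 144, and thinning the deepest library 0 of 4. The cause of a lost call was not tested, other than that fewer libraries were used when replicates were left out. Scaling by library size alone moved the median 5-FU response of all genes to 0.19 for sensitive HT-29, where TMM scaling gave 0.03. It was 0.11 for sensitive HCT-116 (0.03 with TMM) and 0.12 for sensitive DLD-1 (0.01 with TMM), and for the label HT-29 against sensitive HT-29 to 0.26. Same-numbered replicates deviated together weakly if at all. Their median correlation was −0.001 for DLD-1, 0.008 for HCT-116 and 0.008 for HT-29. Pairs of unlike numbers had medians of 0.010, −0.007 and −0.005, so same-numbered pairs lay slightly higher in HCT-116 and HT-29 only. In that order, 0, 2 and 0 of 45 pairs were over 0.1, and 2, 9 and 11 of 18 libraries were nearest to their own number. A replicate block lost 2 of the 147 calls (HIST1H2AJ under 5-FU in sensitive HT-29 and HIST2H2AC in the resistant minus sensitive difference of HCT-116) and changed 2 of the 25 counts, none by over 1.5 times.

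Counts that moved are given here. For 5-FU in sensitive DLD-1 (0 members), the adjusted p alone gave 6, and leaving out a replicate 0 to 2. For resistant against sensitive DLD-1 (0), the adjusted p alone gave 1. For the difference of responses in DLD-1 (4), both thresholds gave 1 and leaving out a replicate 2 to 3. For irradiation in resistant DLD-1 (0), no filter gave 1 and the adjusted p alone 2. For resistant against sensitive HCT-116 (4), the compared groups alone gave 2, the adjusted p alone 14 and leaving out a replicate 2 to 3. For irradiation in resistant HCT-116 (0), the adjusted p alone gave 2. For 5-FU in sensitive HT-29 (10), leaving out a replicate gave 5 to 8, with HIST1H2AJ, HIST2H2BF, HIST1H1E, HIST1H4J and HIST2H4B among those lost. For the difference in HT-29 (7), library size alone gave 4, both thresholds 3 and leaving out a replicate 3 to 5. For irradiation in the libraries labelled resistant HT-29 (1), no filter gave 3, DESeq2 0, the adjusted p alone 4 and leaving out a replicate 0 to 1. For those libraries against sensitive HCT-116 (2), no filter, DESeq2 and the compared groups alone each gave 1, the adjusted p alone 8 and leaving out a replicate 1. For DLD-1 minus HT-29 (7), both thresholds gave 4 and leaving out a replicate 4 to 5. For DLD-1 against HT-29 under uracil (13), the adjusted p alone gave 21.

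The log2 ratio of the summed TPM under 5-FU was −0.32 for DLD-1, 1.14 for HCT-116 and −0.47 for HT-29. Without HIST1H2BK it was −0.24, 0.94 and −0.47. As a share of counts it was −0.063, 1.08 and −0.31. Leaving out a replicate gave −0.34 to −0.28, 1.13 to 1.15 and −0.52 to −0.45.

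Depth limits the scarce members. HIST1H1E, HIST1H2AI and HIST1H2AJ rested on few counts, and 4 members in HCT-116 and 2 in DLD-1 could not be tested.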
